A study of Arabidopsis thaliana with 6 samples.

Results

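RNA stretches recovered with ECT2 and labelled 3' UTR by the submitters were examined in Arabidopsis thaliana seedlings. A member was a distinct site, defined by chromosome, start, end and strand, that lay on Chr1 to Chr5, was listed in either FA-CLIP library and carried the location label 3' UTR. The rule found 24549 sites in FA-CLIP replicate 1 and 28979 in replicate 2. They made up 53477 distinct sites, of 80503 distinct FA-CLIP sites on these chromosomes and 83017 on all chromosomes. Only 51 had identical coordinates in both libraries. The mock libraries held 440 and 549 sites of this label.

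All 6 libraries came from 14-day-old seedlings with the Col-0 background, 2 for each of 3 groups, and the tissue had been fixed with formaldehyde. The input group was RNA of the line labelled transgenic ECT2:ETC2-Flag/ect2, a T-DNA mutant of ECT2 (ect2) that carries Flag-tagged ECT2, without precipitation. The FA-CLIP group was RNA precipitated with ANTI-FLAG M2 magnetic beads from plants of that same label. The mock group was RNA held by the same beads from wild-type plants, which keep their own, untagged ECT2. FA-CLIP thus differed from the mock by the ect2 mutation as well as by the tagged protein. The labels do not name the transgene's promoter beyond this, nor the number of lines. They also do not say whether replicates were separate cultures, so spreads and p-values measure only the differences between these libraries. The input level of ECT2 was 72.1 and 74.9 FPKM (fragments per kilobase of transcript, scaled to library size). It does not check the genotype, since the input libraries all carried the transgene.

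ECT2 belongs to the YTH-domain proteins, which read N6-methyladenosine (m6A), a methyl mark that a writer complex places on adenosines of messenger RNA. In plants the mark is known to lie mostly in 3' UTRs and near stop codons, within the consensus DRACH (D is A, G or U, R is A or G, H is A, C or U). The word URUAY (R is A or G, Y is C or U) is known as a plant motif found with m6A and with ECT2. Each deposited site comes with a count of conversion events, taken here as base changes in the reads of the kind that crosslinking can leave. Whether each event marks a crosslink was not tested. The base change that was counted is not given in the sources used here. No listed site had fewer than 2 events.

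The sequences of the 3' UTR loci with the most events are shown first, as the single strongest loci of the label. A locus here joins overlapping 3' UTR sites of both FA-CLIP libraries (same strand, 1 nt or more in common). Letters are genomic DNA of the transcribed strand, 5' to 3', from the RefSeq assembly TAIR10.1. Each window holds 29 nt around the URUAY nearest to the centre of the strongest site, or around that centre where the site has no URUAY. Capitals mark the URUAY nearest to the centre, and any others are left in lower case.
AT5G45720, chr5:18543000-18543028, minus strand: atatctggctttcacccaggagacccggg
ARFA1E (first of its loci listed), chr3:23053633-23053661, plus strand: tttcatactctttgttcttcgctctaata
PSBR, chr1:29736894-29736922, plus strand: agtgtttgtataTATATtcatcttcctat
GGT1, chr1:8268612-8268640, minus strand: ccctattctataaaccatatctctctctt
AT5G60390, chr5:24290789-24290817, plus strand: ctttttggatatctctgagactttttatt
TCTP, chr3:5669603-5669631, minus strand: ttcgtcgtcgtcccctattaaaattacct
ARFA1E (second of its loci listed), chr3:23053600-23053628, plus strand: tatcttttgttctttcgtctcaaactctt
PSAL, chr4:7522617-7522645, plus strand: ttgacattaattTATATttgccttgcttt

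Of these 8 windows, those of PSBR and PSAL held a URUAY within the site. The sequence listed under AT5G45720 stood apart. It lay inside the tRNA gene AT5G45715, annotated at chr5:18542980-18543051 on the same strand, and occurred 11 times in the nuclear genome, where the other 7 sequences occurred once each. It is described apart below.

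The loci of 3 genes of leaf hair (trichome) growth, which had been linked to ECT2, are shown next. TTG1 is a WD-repeat regulator of trichome initiation, and DIS2 and SCAR2 act on the actin cytoskeleton that shapes the hair.
DIS2 (first of its loci listed), chr1:10963038-10963066, plus strand: ttagctgagacaTGTATtttttttactgg
DIS2 (second of its loci listed), chr1:10963136-10963164, plus strand: tatttgaacaaaTGTATaatgtgaaaatt
SCAR2 (first of its loci listed), chr2:16100918-16100946, plus strand: agtcaggtaggtTATACaatctctatttc
SCAR2 (second of its loci listed), chr2:16101016-16101044, plus strand: tttataggtgtgTGTATgttgtaatgtaa
TTG1 (first of its loci listed), chr5:8370811-8370839, minus strand: tatcttatgttgTGTATaaaacccaacca
TTG1 (second of its loci listed), chr5:8370719-8370747, minus strand: cttgctttattggacgtctctaagataaa

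A URUAY lay in 5 of these 6 trichome windows, and 4 of the 5 had the form with UGUA. Over all 15654 reproducible loci 34.1% held a URUAY, and windows were centred on one wherever the site had it. All loci had a median width of 49 nt, and the 6 trichome loci were 48 to 84 nt wide. A wider locus has more room for such a word, so the 2 shares are not on a par. The strongest mock 3' UTR sites after the tRNA sequence are shown for comparison.
AT2G31141, chr2:13271849-13271877, minus strand: tctcctggaccaccactttttttcacttt
AT2G35750, chr2:15029824-15029852, minus strand: gatacttctgcaattctgaggctattttt

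The first mock sequence occurred at 2 places in the nuclear genome. The second overlapped the small nucleolar RNA (snoRNA) gene AT2G35747 on the same strand. Neither held a URUAY, but another of the 5 strongest mock sites, in AT3G06435, held 3.

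The share of sites labelled 3' UTR was set against the mock, which measures what the beads hold without the tag. In FA-CLIP 60.5% and 72.3% of the Chr1 to Chr5 sites were labelled 3' UTR, and in the mock 18.3% and 20.04%. The means were 66.4% ± 8.28 (SD, n = 2) and 19.2% ± 1.21 (SD, n = 2), and both FA-CLIP libraries lay above both mock libraries. An exact permutation test (two-sided) gave p = 0.333, the smallest value that 2 against 2 libraries allow, as in every test of libraries here. The rest of the FA-CLIP sites were mostly labelled CDS, at 31.1% and 21.7%. The mock had 32.0% and 35.4% in CDS, and a further 36.1% and 31.9% in transcripts with no coding sequence. Among sites labelled 3' UTR, CDS or 5' UTR alone, the 3' UTR share was 62.9% and 74.8% in FA-CLIP and 32.9% in each mock library.

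Conversion events separated the groups further. The 3' UTR sites held 402525 and 500410 events in FA-CLIP, which were 48.1% and 65.2% of all events on these chromosomes. They held 9471 and 10422 events in the mock, or 2.35% and 1.96%. The means were 56.7% ± 12.1 (SD, n = 2) and 2.16% ± 0.274 (SD, n = 2), without overlap between the groups (exact permutation p = 0.333). Most mock events, 92.4% and 93.1%, lay in transcripts with no coding sequence, which held 41.1% and 28.5% of FA-CLIP events. The low mock share thus depends on such transcripts. CDS sites held 8.61% and 5.25% of events in FA-CLIP and 2.98% and 3.12% in the mock. Library totals over all chromosomes were 901178 and 830355 events in FA-CLIP and 489805 and 653262 in the mock. These totals include the events in transcripts with no coding sequence. The number of 3' UTR sites, given above, differed far more than the totals. When every library was thinned to 489805 events, 18260 and 22716 sites were expected to remain in FA-CLIP, and 440 and 426 in the mock.

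A single sequence made up most of the mock signal under this label. The site of AT5G45720 (chr5:18543000-18543028, minus strand) held 6278 and 6237 mock events, which were 66.3% and 59.8% of all mock 3' UTR events. It held 6435 and 1690 events in FA-CLIP, so replicate 1 was at the mock level and replicate 2 below it. The gene is named for an AAA-type ATPase, had an input of 0.454 and 0.554 FPKM, and its annotated 3' UTR contains the tRNA gene named above. Without AT5G45720 the 3' UTR took 0.804% and 0.798% of mock events and 47.7% and 65.1% of FA-CLIP events.

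Small noncoding RNA genes of all kinds (tRNA, rRNA, snoRNA, snRNA and miRNA) lay under 10 and 16 of the mock 3' UTR sites, which held 70.1% and 64.8% of their events. They lay under 16 and 10 of the FA-CLIP 3' UTR sites, with 1.66% and 0.361% of events. Leaving out the sites over such genes, whatever their label, raised the 3' UTR share of events to 80.0% and 90.5% in FA-CLIP and to 9.81% and 10.4% in the mock. The share of sites became 62.0% and 73.8% in FA-CLIP and 28.8% and 29.3% in the mock. The mock libraries stayed below both FA-CLIP libraries in each of these forms.

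**Figure D1:**
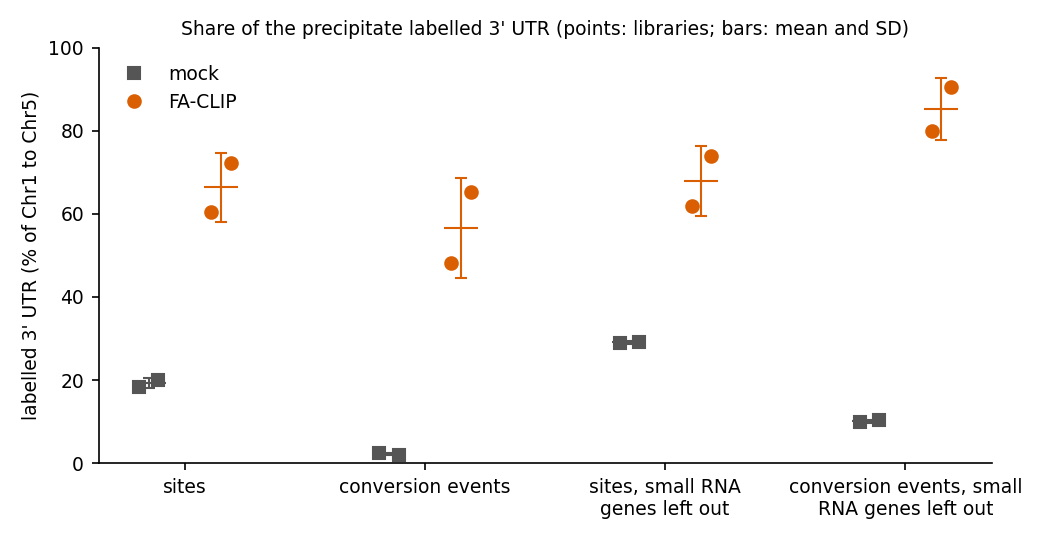
Percentage of Chr1 to Chr5 sites (positions 1 and 3) and of conversion events (positions 2 and 4) labelled 3' UTR, with each library as a point and the mean and SD of 2 libraries as bars. The FA-CLIP libraries lie between 48.1% and 90.5% and the mock libraries between 1.96% and 29.3%, with the mock share of events at its lowest before small noncoding RNA genes are left out.

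The label was checked against the RefSeq annotation of TAIR10.1. The midpoint lay in the 3' UTR of the first listed transcript for 95.8% and 96.4% of FA-CLIP sites and 95.7% and 96.4% of mock sites. A further 2.66% and 2.38% of FA-CLIP midpoints lay in coding sequence, and 6.74% and 6.14% of the sites also covered coding bases. Sites were short, 28 and 29 nt in the median in FA-CLIP (middle 50% from 21 to 38 and from 22 to 39 nt) and 24 and 26 nt in the mock.

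The typical FA-CLIP 3' UTR site held more events than the typical mock site. The median was 5 events in both FA-CLIP libraries and 3 in both mock libraries. The mean went the other way, at 16.4 and 17.3 events in FA-CLIP and 21.5 and 18.98 in the mock, whose mean includes the AT5G45720 site. Sites at the listing minimum of 2 events made up 20.9% and 20.4% in FA-CLIP and 40.9% and 43.4% in the mock. FA-CLIP sites labelled CDS had a median of 3 events in both libraries. The 1% of 3' UTR sites with the most events held 28.3% and 25.8% of the 3' UTR events in FA-CLIP.

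Recurrence between replicates was read from overlap, since sites were called in each library alone. Of the 3' UTR sites of FA-CLIP replicate 1, 80.1% overlapped such a site of replicate 2 on the same strand, and 70.2% of those of replicate 2 overlapped one of replicate 1. In the mock the shares were 51.1% and 42.1%. FA-CLIP sites labelled CDS recurred in 36.8% and 52.4%, and those labelled 5' UTR in 35.8% and 58.1%. When 50% of each of both sites had to overlap, the FA-CLIP shares for the 3' UTR were 44.4% and 37.6%, and the mock shares 32.5% and 26.05%. Sites filled more of their 3' UTRs in FA-CLIP than in the mock. Possible start positions of a URUAY numbered 643414 and 785930 within FA-CLIP sites and 2278569 and 2337897 in the rest of those 3' UTRs. In the mock they numbered 9406 and 12502 within sites, and 91637 and 116849 in the rest. Denser sites overlap more often by placement alone, and that part of the shares was not tested for any label.

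Recurrence rose with the number of events. FA-CLIP replicate 1 sites of 2 events recurred in 59.0% and sites of 100 or more in 97.1%. For replicate 2 these shares were 41.0% and 98.1%. Mock sites of 2 events recurred in 31.7% and 21.0%, and all 5 and 6 mock sites of 100 or more events recurred. Between 5 and 9 events, FA-CLIP sites recurred in 87.1% and 77.0% and mock sites in 81.9% and 68.1%. FA-CLIP sites with more events were also wider, with medians of 23 nt in both libraries at 2 events and of 38 and 37 nt at 100 or more. The parts of width and of site density in the recurrence were not tested.

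**Figure D2:**
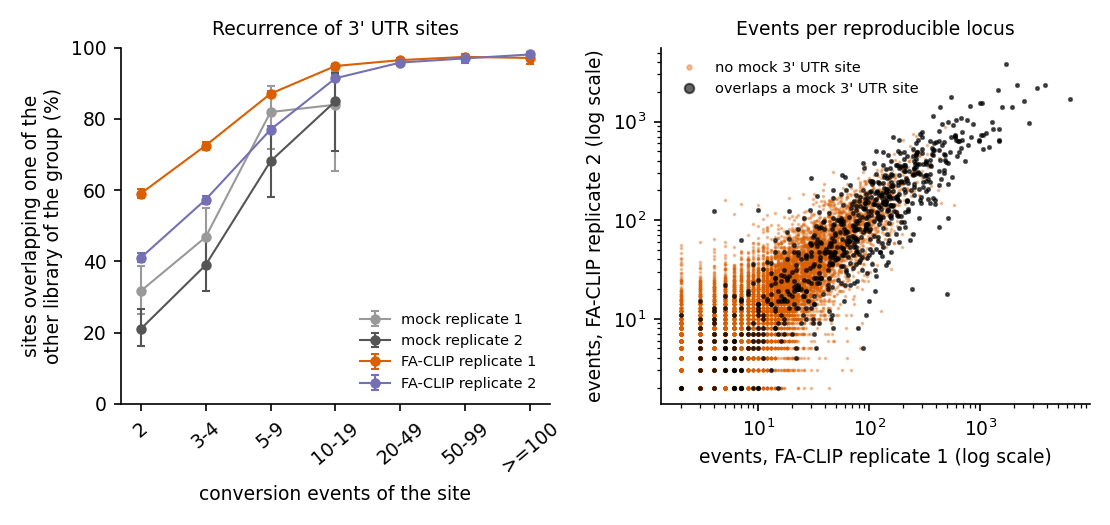
Left, percentage of 3' UTR sites that overlapped one of the other library of their group, by conversion events per site, with 95% Wilson intervals and classes of at least 20 sites; right, events in FA-CLIP replicate 1 against replicate 2 for each of 15654 reproducible loci on log axes. Sites of 2 events recur in 21.0% to 59.0% and FA-CLIP sites of 100 or more in over 97%, and loci that overlap a mock site (black, 709 loci) lie mostly among those with many events.

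Joining overlapping sites of both FA-CLIP libraries gave 15654 reproducible 3' UTR loci (10895 with the stricter overlap), against 209 in the mock. They held 93.7% and 91.8% of the 3' UTR events of the FA-CLIP libraries. The typical locus was 49 nt wide and held 9 events (medians, events averaged over both libraries). Between the libraries, events per locus correlated at 0.768 (Spearman) and, on the log2 scale, at 0.828 (Pearson). Loci are not independent replicates, and gene abundance is shared by both libraries. The ratio of replicate 2 to replicate 1 was within 2-fold of its median for 71.0% of loci and within 4-fold for 95.02%. The 747 loci of 100 or more events held 45.4% of all locus events.

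The loci lay in 8162 genes, 8136 of them nuclear and protein-coding. Of the 16960 nuclear protein-coding genes with an input of 1 FPKM or more, 8101 had a reproducible locus, a share of 47.8%, against 145 genes or 0.855% in the mock. Without a limit on input, 8136 of 26690 genes (30.5%) had one in FA-CLIP and 149 (0.558%) in the mock. A gene with any locus had a mean of 1.92 loci. Single loci were found in 3710 genes and 3 or more in 2007. Midpoints of neighbouring loci of a gene were a median of 65 nt apart (middle 50% from 49 to 87 nt).

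Few of the loci touched the mock. A mock 3' UTR site overlapped 709 loci, or 4.53% (95% Wilson interval 4.21% to 4.87%), and 13304 loci (84.99%) lay in genes with no mock site at all. The reverse overlap was high: 92.3% and 91.4% of mock 3' UTR sites overlapped a 3' UTR site of FA-CLIP replicate 1, and 89.5% and 88.3% one of replicate 2. The 709 shared loci were in abundant RNA. They had a median of 80 events and a median gene input of 176 FPKM, against 8.5 events and 14.9 FPKM for the 14945 others, and 86.6% of them lay in the 10% of genes with the highest input. They held 32.2% of the locus events. At the 215 loci with events in both mock libraries, mean FA-CLIP events exceeded mean mock events by a median of 23.6-fold (middle 50% from 6.23 to 73.5), without scaling for depth. At 12 of the 215 the mock had more.

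The strongest loci after that of AT5G45720 were chosen by their FA-CLIP events, so their excess over the mock is a description. ARFA1E, a small GTPase of the ADP-ribosylation factor family that acts in vesicle traffic, held 3832 and 2374 events at chr3:23053635-23053658, against 19 and 24 in the mock. PSBR, a subunit of photosystem II, held 1709 and 3839 at its first locus, against 13 and 28. GGT1, the glutamate:glyoxylate aminotransferase of photorespiration, held 3238 and 2205, against 10 and 25. The order of the FA-CLIP libraries differed between these genes.

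The translation elongation factor AT5G60390 held 2114 and 2340 events, against 10 and 17 in the mock. TCTP, the translationally controlled tumor protein, a growth regulator, had 3 of the 15 strongest loci, with 2489 and 1608, 1920 and 1407, and 1032 and 1547 events. A second ARFA1E locus, 68 nt after the stop codon where the first lay at 101 nt, held 2739 and 956 events. The photosystem I subunit PSAL held 1429 and 2078. Of the remaining loci in the 15, those of GRF6 (a 14-3-3 protein), PSBW (photosystem II), LHCB5 (a light-harvesting antenna protein), AT4G31985 (ribosomal protein L39) and UBC10 (a ubiquitin-conjugating enzyme), FA-CLIP events ranged from 538 to 1758. Mock events at these 5 loci ranged from 4 to 32. Apart from AT5G45720, the 15 loci lay 46 to 213 nt after the stop codon.

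Loci that were strong for their gene's input, in genes with no mock site and with input above the median of genes with a locus (11.6 FPKM), were led by AGD5, an ARF GTPase-activating protein. It held 145 and 203 events at an input of 12.3 and 13.5 FPKM. The uncharacterized AT5G06980 held 154 and 122. EIF4A-III, the RNA helicase of the exon junction complex, held 258 and 210. A further 6, AT3G54880, AT5G05060, AT5G13240, MGD1 (a synthase of chloroplast galactolipids), PGM3 (a phosphoglucomutase) and UBC6 (a ubiquitin-conjugating enzyme), held 68 to 205 events in either library. Since the ratio chose these genes, their high ratios are a description. Input is per length of transcript and events are not, so the order of genes in this ratio also moves with transcript length.

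The most loci in a gene were 16 in AT3G02468, which the deposited table describes as conserved peptide upstream open reading frame 9. The locus is an upstream reading frame that the annotation lists as a gene of its own. Of its 16 loci, 10 had their midpoint in the coding sequence of SAMDC (AT3G02470, S-adenosylmethionine decarboxylase) and 4 in an annotated 3' UTR of another gene, so most of these loci lay in the main coding frame. AT1G48598, upstream open reading frame 31, had 8 loci, 5 of them in the coding sequence of PMEAMT (AT1G48600, a methyltransferase of phosphocholine synthesis) and 3 in another gene's 3' UTR. Such loci were rare overall: 139 and 92 FA-CLIP sites, 0.566% and 0.317% of members, were listed first under an upstream reading frame.

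The other genes with many loci had them along a regular 3' UTR. TCTP had 9 loci in a 3' UTR of 392 nt, and its 3' UTR sites summed to 6483 and 5990 events. Its 3 weakest loci were the outermost ones, that nearest the stop codon with 47 and 169 events and the pair nearest the 3' end with 18 and 19, and 18 and 12. The 3 loci between that pair and the 3 strongest held 245 to 534 events in either library. GLX1, a glyoxalase, had 8 loci in 478 nt, of which the strongest (chr1:3997695-3997752, plus strand) held 145 and 184 events and the rest 2 to 51. AT3G06435, uncharacterized, had 9 loci in 1066 nt with 312 and 164 events, but the mock also listed 14 and 16 sites there. Its strongest locus held 136 and 118 mock events against 113 and 19 in FA-CLIP. The next held 39 and 57 mock events against 58 and 34.

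The strongest mock sites after that of AT5G45720 were chosen by their mock events, so their order against FA-CLIP is a description. AT2G31141 held 415 and 547 mock events, against 721 and 399 in FA-CLIP. AT2G35750, over the snoRNA gene, held 224 and 328, against 77 and 24. AT1G31835, whose 29 nt occur 11 times in the nuclear genome, held 165 and 250, against 47 and 8, and AT3G06435 held 136 and 118 at its strongest mock site, against 113 and 19. FA-CLIP replicate 2 was below both mock libraries at each of these 4 sites. FA-CLIP replicate 1 was below both at 3 of the 4, and above both at AT2G31141.

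Among the genes of the m6A pathway, loci were counted against the 47.8% of all genes of 1 FPKM or more. The lists were chosen with earlier results of these data known. Of the 12 YTH-domain genes, the readers of the mark, 9 had a reproducible 3' UTR locus and none had a mock site. With 50% overlap 7 of the 12 kept a locus. The median input of the list was 6.62 FPKM, and 56.6% of all genes between 6.14 and 8.13 FPKM had a locus. ECT1 held the most, with 3 loci and 40 and 49 events in its 3' UTR sites. ECT2 itself had 27 and 13 events over 2 loci and some single-library sites, at an input of 73.5 FPKM, and ECT3 had 9 and 24 at 22.6 FPKM. These are fewer events per unit of input than in ECT1, at 7.12 FPKM, though events also move with the length of the 3' UTR. The annotated 3' UTR was 1039 nt long in ECT2, 491 nt in ECT3 and 242 nt in ECT1. The ECT2 input may come largely from the transgene, whose 3' UTR the labels do not give. Its events per unit of input can therefore not be read as weaker recovery. The other readers with a locus, ECT5, ECT6, ECT7, ECT8, ECT11 and CPSF30 (a cleavage and polyadenylation factor with a YTH form), held 3 to 13 events in each library. ECT4 had 2 and 8 events in sites that did not overlap, and ECT9 and ECT10 had none.

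Of the 7 writers and erasers, 2 had a reproducible locus. These were AT3G05680 (named EMB2016 in the annotation, the writer subunit VIRILIZER) with 4 and 9 events, and AT5G01160 (HAKAI, a writer subunit) with 7 and 8. The catalytic subunit MTA, its partner MTB (AT4G09980), FIP37 and the demethylases ALKBH9B (AT2G17970) and ALKBH10B (AT4G02940) had no 3' UTR site in any library, at inputs of 2.47 to 11.1 FPKM. With a floor of 2 events per listed site, binding below that level was not detectable. The count is small, and the median input of the list was 4.06 FPKM. In the input class that holds this level (3.48 to 4.62 FPKM) 32.3% of all genes had a locus.

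All 3 trichome genes had 2 reproducible loci and no mock site, where 47.8% of all genes of 1 FPKM or more had a locus, and 32.3% to 74.4% of genes in the input classes of these 3. The 3 genes were listed because they had been linked to ECT2, so this count is a description and no test of such a link. With 50% overlap 2 of the 3 kept a locus. TTG1 held 66 and 48 events in its 3' UTR sites at 12.1 FPKM, DIS2 17 and 31 at 3.64 FPKM, and SCAR2 12 and 14 at 5.61 FPKM. The strongest TTG1 locus, 171 nt after the stop codon and with TGTAT at the shown window's centre, held 38 and 43 events. The weaker one, 260 nt after it and without URUAY, held 3 and 5.

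Highly expressed groups were read against the 47.8% of all genes and the 87.4% of the highest input class with a locus. Of 23 photosystem subunit genes 22 had a locus, with a median of 345 and 329 events per gene, and 20 also had a mock 3' UTR site, with a median of 7 and 10 mock events. The exception was PSBP-2, with an input of 1.91 FPKM and no site. All 19 light-harvesting genes had a locus (median 116 and 125 events, input 1716 FPKM), and 15 also had a mock 3' UTR site. Their median was 9 mock events in each mock library. These messages mark green tissue, and their levels go with the labelled seedlings. Several light-harvesting genes, such as CAB1, CAB2 and CAB3, are near-identical copies, so their events may be split among them. Of 92 genes picked by product names of ribosomal proteins, 83 reached 1 FPKM and 75 had a locus (median 122 and 183 events, input 84.6 FPKM). These names include family-level ones, such as those of the L18ae and L34e families, and the list is not a complete set of ribosomal proteins. Of 33 genes of the 26S proteasome, 32 reached 1 FPKM and all of these had a locus (median 53 and 67.5 events, input 21.5 FPKM). That median lies below the highest input class. In the class that holds it (17.4 to 34.7 FPKM) 79.4% of all genes had a locus. Mock sites were listed in 14 of the 83 ribosomal protein genes and 1 of the 32 proteasome genes. Over all 16960 genes the medians were 2 and 4 events and the input 6.14 FPKM. The lists differ from that background in input, whose part in the counts was not tested.

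Input level went with the presence of a locus over the whole range. Genes of 1 FPKM or more were ranked by input and cut into 10 equal classes. In the lowest class (1.00 to 1.69 FPKM), 4.42% had a reproducible 3' UTR locus. The share was 47.1% between 4.63 and 6.14 FPKM, in class 5 of 10, and 87.4% in the highest class (above 34.7 FPKM). The mean number of loci in genes with any rose from 1.16 to 2.83. Mock 3' UTR sites were found in 0.0590% of the lowest and 22.9% of the highest class. Across genes with a 3' UTR site, events and input had a Spearman correlation of 0.646 and 0.667 in FA-CLIP (9558 and 10411 genes) and of 0.454 and 0.409 in the mock (283 and 368 genes). Genes are not replicates, and input was made with another library kit. The share moved less with the length of the 3' UTR. Among genes above the median input, cut into 5 classes by that length, 67.8% of the shortest (18 to 210 nt) and 77.3% of class 4 (318 to 406 nt) had a locus, and the longest class (406 to 3326 nt) was lower again at 71.2%.

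**Figure D3:**
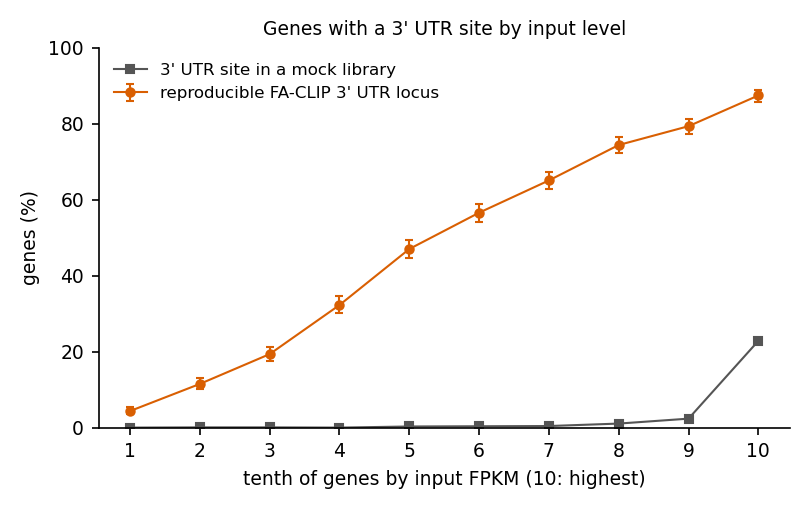
Percentage of nuclear protein-coding genes of 1 FPKM or more with a reproducible FA-CLIP 3' UTR locus (circles, with 95% Wilson intervals) and with a 3' UTR site in either mock library (squares), by 10 equal classes of input FPKM. The FA-CLIP share climbs from 4.42% to 87.4%, and the mock share reaches 2.42% in class 9 and 22.9% in the highest.

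Within the 3' UTR, FA-CLIP sites lay nearer to the middle than mock sites. The median midpoint was at 39.2% and 41.0% of the 3' UTR length from the stop codon in FA-CLIP and at 31.2% and 32.1% in the mock. The means were 40.1% ± 1.22 and 31.7% ± 0.637 (SD, n = 2 each), without overlap (exact permutation p = 0.333, two-sided). In distance, the medians were 116 and 119 nt from the stop codon in FA-CLIP and 101 and 104 nt in the mock. From the annotated 3' end they were 174 and 167 nt in FA-CLIP and 213.5 and 210 nt in the mock. The first 50 nt after the stop codon held 17.9% and 16.8% of FA-CLIP and 24.3% and 21.0% of mock sites. The last 50 nt held 6.14% and 7.19% of FA-CLIP and 1.67% and 2.27% of mock sites.

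Mock sites came from genes with longer 3' UTRs (medians over genes of 312.5 and 315 nt, against 286 and 282 nt), and the position moved with this length. In 3' UTRs over 300 and up to 500 nt, the median relative position was 39.1% and 40.2% in FA-CLIP and 29.7% and 30.9% in the mock. In those over 500 nt it was 24.4% and 25.2% in FA-CLIP and 24.2% and 24.7% in the mock, so the groups came together there. When FA-CLIP sites were limited to genes with a mock 3' UTR site, their median was 36.2% and 37.8%, still above both mock values. When each 3' UTR was cut into 10 equal stretches from the stop codon on, stretch 4 held the most FA-CLIP sites in both libraries, 14.4% and 13.9%. The last stretch, towards the poly(A) end, held 1.73% and 2.17%.

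**Figure D4:**
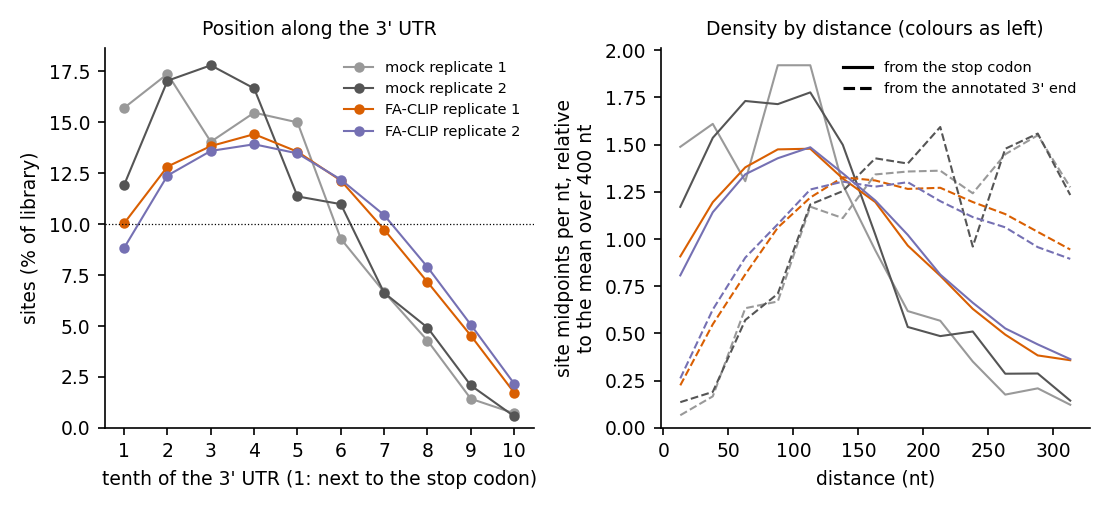
Left, percentage of each library's 3' UTR sites by 10 equal stretches of the 3' UTR, counted from the stop codon, with a dotted line at an even 10%; right, site midpoints per available nt by distance from the stop codon (solid) or from the annotated 3' end (dashed), relative to each library's mean over the distances measured. FA-CLIP peaks in stretch 4 at 14.4% and 13.9%, the mock peaks nearer the stop codon, and all libraries fall off towards the 3' end.

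The bases of the sites were rich in U. U made up 41.1% and 40.7% of FA-CLIP site bases and 42.7% and 42.6% of mock site bases, against 36.7% of the 3' UTRs of genes of 1 FPKM or more. The enzyme that trimmed the RNA is not named in the labels; RNase T1, common in such work, cuts after G. The last base of a site was G in 22.0% and 20.7% of FA-CLIP and 27.7% and 28.2% of mock sites, where G made up 16.0% and 16.2% of the FA-CLIP and 14.8% and 15.6% of the mock bases. The part of trimming, and of the listing of sites by conversion events, in the motif values below was not tested.

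Motifs were counted on the transcribed strand, overlapping matches included, within the sites and, for the same transcripts, in the rest of the 3' UTR. URUAY occurred 10.2 and 10.4 times per kb within FA-CLIP sites and 8.08 and 7.84 times outside, a log2 ratio of 0.34 and 0.41. In the mock it occurred 10.5 and 10.8 times within and 7.22 and 7.83 times outside, a log2 ratio of 0.54 and 0.46. The excess over the neighbouring 3' UTR was thus present in every library and higher in both mock libraries (means 0.38 ± 0.05 and 0.50 ± 0.06, SD, n = 2, exact permutation p = 0.333). That order turned with sites of 5 or more events and with sites extended by 25 nt. It was kept in reproducible loci and in genes with a mock 3' UTR site, with differences of -0.21 and -0.43 (log2, FA-CLIP minus mock). Mock values rest on 99 and 135 occurrences, against 6589 and 8181 in FA-CLIP. The size of the excess also depends on what the sites are set against. All annotated nuclear 3' UTRs held 9.36 URUAY per kb, more than the rest of the 3' UTRs with sites. Against them the log2 ratios were 0.13 and 0.15 in FA-CLIP and 0.17 and 0.21 in the mock.

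The forms of URUAY were unequal. UGUAY had a log2 ratio of 0.56 and 0.66 in FA-CLIP and 0.70 and 0.88 in the mock. This order also turned with sites of 5 or more events and with extended sites. It was kept in reproducible loci (-0.27, FA-CLIP minus mock) and in genes with a mock 3' UTR site (-0.41). The forms with UAUA were near the rest of the 3' UTR in FA-CLIP, at 0.04 and 0.16 for UAUAC and 0.19 and 0.19 for UAUAU. The word UGUAA, which holds the UGUA known from plant polyadenylation signals, had 0.53 and 0.62 in FA-CLIP and 1.04 in both mock libraries. UUUUU had 0.52 and 0.39, and 0.32 and 0.62. AAUAAA, the polyadenylation signal, was below the rest of the 3' UTR at -0.29 and -0.18 in FA-CLIP and -0.31 and -0.18 in the mock. Neither DRACH (0.02 and 0.01 in FA-CLIP, -0.03 and 0.13 in the mock) nor RRACH (0.01 and -0.02, and -0.02 and 0.23) nor GGAC (0.05 and -0.17, and -0.30 and 0.06) stood apart from the rest of the 3' UTR within the sites as a whole. For DRACH, AAUAAA, RRACH, GGAC and also for UUUUU the order of FA-CLIP and mock turned when single libraries were left out.

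In windows of 29 nt tiled over all annotated nuclear 3' UTRs, 17.9% held a URUAY and 36.9% a DRACH. The shares were 9.64% for UGUAY, 7.17% for UGUAA, 13.3% for UUUUU, 26.5% for RRACH, 3.07% for GGAC and 3.001% for AAUAAA. Of FA-CLIP sites of exactly 29 nt (738 and 911 sites), 20.6% and 19.8% held a URUAY and 39.3% and 34.8% a DRACH. Over all widths, 20.4% and 21.6% of FA-CLIP members held a URUAY, so about 4 in 5 did not. URUAY was less dense in sites with more events: 10.2 and 10.7 per kb at 2 to 4 events, and 7.20 and 7.69 per kb at 100 or more. The latter values lie below the 9.36 per kb of all annotated nuclear 3' UTRs. DRACH went from 19.4 and 19.2 per kb to 16.6 and 17.2 over the same classes.

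In the genes that also had a mock 3' UTR site, FA-CLIP sites (2132 and 2168) had log2 ratios of 0.09 and 0.06 for URUAY, 0.86 and 0.88 for UUUUU and -0.26 and -0.27 for DRACH. The mock values were 0.54 and 0.46 for URUAY, 0.32 and 0.62 for UUUUU and -0.03 and 0.13 for DRACH. FA-CLIP sites that overlapped no mock site (23704 and 28147) kept 0.35 and 0.42 for URUAY. The choice of these subsets came after the first values were known.

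Although DRACH was not denser within sites as a whole, it was denser at their 5' edge than upstream of it. The middle A of DRACH fell from 5 nt before to 9 nt after the first base of the site 20.5 and 23.4 times per kb in FA-CLIP (95% Poisson intervals 20.1 to 21.0 and 22.9 to 23.8, counting error only). Between 30 and 11 nt upstream of the edge it fell 16.7 and 15.7 times per kb. These stretches were read from the genome, so they can reach into coding sequence or introns. The rest of the same 3' UTRs, outside the sites, held 18.15 and 18.20 DRACH per kb, between the upstream and the edge values. The log2 ratio of edge over upstream was 0.30 and 0.57, and was 0.43 and 0.72 for sites of 5 or more events. Forms of DRACH with no G had 0.28 and 0.54, and forms with a G 0.32 and 0.60. G itself was less frequent at the edge than upstream, with log2 ratios of -0.24 and -0.30. FA-CLIP sites that overlapped no mock site had 0.30 and 0.56 for DRACH.

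The mock showed 0.21 and 0.48 for DRACH at the 5' edge, from 129 and 163 occurrences. The groups overlapped, with means of 0.44 ± 0.19 and 0.34 ± 0.19 (SD, n = 2, exact permutation p = 0.667), and the order of the groups turned when FA-CLIP replicate 2 or mock replicate 1 was left out. The density at the edge was therefore not distinguishable between FA-CLIP and mock with these libraries. URUAY showed 0.22 and 0.24 in FA-CLIP and 0.25 and 0.23 in the mock in the same windows. Just inside the edge, from 10 to 14 nt, DRACH dropped to 15.7 and 14.9 per kb in FA-CLIP. The edge windows were chosen after the profile had been seen.

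**Figure D5:**
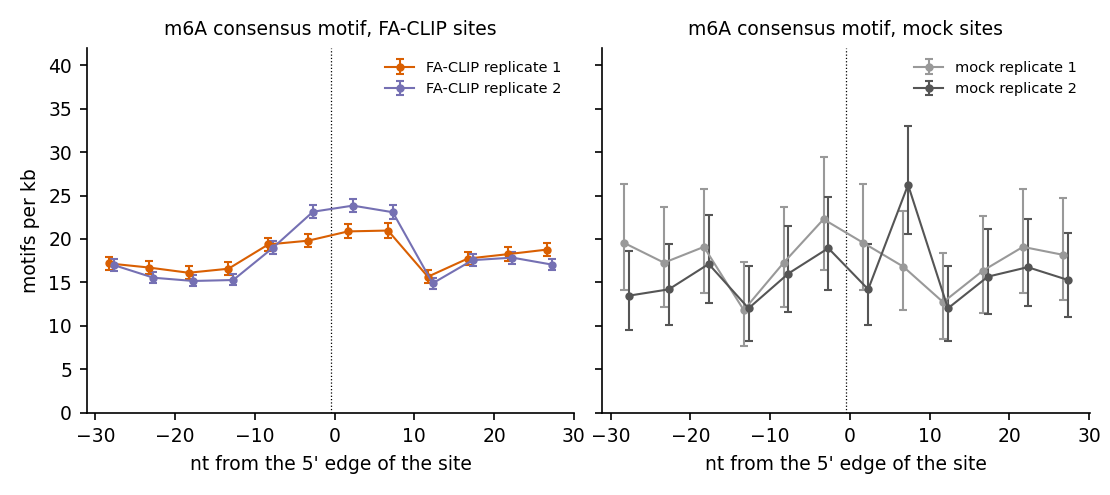
Density of the m6A consensus motif (occurrences per kb, placed by the A that can be methylated) in bins of 5 nt by distance from the first base of a 3' UTR site, with 95% Poisson intervals of the counts; negative distances are upstream and the dotted line is the edge. Both FA-CLIP libraries (left) rise above their upstream level between 5 nt before and 9 nt after the edge, and the mock libraries (right) have wide intervals around similar levels.

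Among all words of 5 bases (pentamers), the first 5 by mean log2 ratio of density within FA-CLIP sites over the rest of the 3' UTR were ACUCU (1.34 and 1.17), UCUCU (1.43 and 1.06), CUCUU (1.29 and 1.02), CUCUC (1.37 and 0.94) and CUCUG (1.19 and 1.10). The mock ratios of these words were higher, from 1.63 to 2.15. UGUAC ranked 39 by this mean, UGUAU 41, UGUAA 49 and UUUUU 86. Words of G and C came last, with GCCGC at -2.07 and -2.05. The ratios of the FA-CLIP libraries had a Spearman correlation of 0.955 across pentamers, and those of the mock libraries 0.562, where the median pentamer occurred 5 times within the sites of mock replicate 1. The mean FA-CLIP and mean mock ratios had 0.542. Pentamers are overlapping words and not independent. In 278 pentamers, 27.1% of all, both FA-CLIP libraries were above both mock libraries. The 5 leading words above were not among these.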

How the data were processed

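FA-CLIP and mock sites and input levels of 14-day-old Arabidopsis seedlings were used as deposited, 2 libraries per group. Per the submitters' processing notes, cutadapt, Bowtie and the TAIR10 build were used. Which site caller and read counter made the files is not given in the sources used here. Per the file headers, each site comes with a conversion event count, a whole number that the authors did not scale, and sites were listed per library. The input values were deposited as FPKM, a unit taken from the values and labels, of unknown depth.

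Sites were joined by strand-aware overlap of at least 1 nt and counted over libraries in Python 3.11.15 with numpy 2.4.6, scipy 1.17.1 and matplotlib 3.10.9. Sequence and annotation came from RefSeq TAIR10.1, whose nuclear chromosomes have the lengths of the files' build. Libraries were compared by exact permutation tests, two-sided. A gene counted as measured at a mean input of 1 FPKM or more. Intervals are 95% Wilson or exact Poisson and cover counting error only. The motif and overlap code was tested on simulated data.

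Named loci were the 15 reproducible loci with the most events, the 10 with the most events per FPKM in genes that had no mock site and passed the median input of genes with a locus, the 5 genes with the most loci, the 5 strongest sites of both mock libraries, and all members of the YTH, writer and eraser, and trichome lists. Of these loci, 1 is not reported here. Members and lists were chosen with earlier results of these data known. Alternatives were sites of 5 or more events, 50% overlap, other denominators, sites extended by 25 nt, other gene sets, the FPKM filter and pseudocount, and each library left out.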

Additional observations from a re-analysis of the deposited data

How the results depend on the processing

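The 3' UTR shares and the position kept their direction under every alternative run, while in 3' UTRs over 500 nt, a length class and not an alternative, the positions of FA-CLIP and mock overlapped. Without each library in turn, FA-CLIP minus mock ranged from 41.4 to 53.1 points for the share of sites, 45.9 to 63.1 for the share of events, 24054.5 to 28484.5 for the number of sites and 7.56 to 9.28 for relative position. A replicate block (same-numbered libraries paired) cannot change these differences of means, which stayed at 47.2, 54.5 and 8.42 points, so it is no check of them. Its sign-permutation test gave p = 0.5, the smallest that 2 pairs allow. The labels do not say that the numbers pair libraries. With sites of 5 or more events the difference in number was 14416 (main 26269.5). With 50% overlap, mean recurrence was 41.0% in FA-CLIP and 29.3% in the mock, and with 5 or more events 61.0% in the mock. The Pearson correlation with input in the mock was 0.206 without the FPKM filter (main 0.302), and 1 of the writers and erasers kept a locus at 50% overlap.

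Motif differences between FA-CLIP and mock (log2, FA-CLIP minus mock) turned under some alternatives for each motif but UGUAA; the cause was not tested. UGUAA stayed lower in FA-CLIP (main -0.47), from -0.77 in genes with a mock site to -0.27 with sites extended by 25 nt. With 5 or more events they were 0.14 for URUAY (main -0.13), 0.047 for UGUAY (main -0.18), -0.27 for AAUAAA (main 0.011), 0.13 for UUUUU (main -0.018) and -0.053 for DRACH at the 5' edge (main 0.093). With sites extended by 25 nt they were 0.088 for URUAY, 0.078 for UGUAY, 0.029 for DRACH (main -0.039) and -0.13 for GGAC (main 0.058). Against all annotated 3' UTRs they were 0.037 for DRACH, -0.026 for GGAC, -0.15 for AAUAAA and 0.0042 for UUUUU. In reproducible loci UUUUU had 0.085. In genes with a mock site, chosen after seeing the data, GGAC had -0.21, AAUAAA -0.41 and UUUUU 0.40. Leaving out each library gave -0.17 to -0.09 for URUAY, -0.27 to -0.09 for UGUAY, -0.52 to -0.43 for UGUAA, -0.12 to 0.043 for DRACH, -0.24 to 0.013 for RRACH, -0.13 to 0.24 for GGAC, -0.053 to 0.074 for AAUAAA, -0.17 to 0.13 for UUUUU and -0.043 to 0.23 for DRACH at the 5' edge. The turns came without mock replicate 2 for DRACH, RRACH and UUUUU, without mock replicate 1 for GGAC, the edge and AAUAAA, without FA-CLIP replicate 1 for GGAC (-0.053), and without FA-CLIP replicate 2 for AAUAAA (-0.043), UUUUU (0.046) and the edge (-0.039). The mock's few sites limit the precision of each of these.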
